A study of Homo sapiens with 12 samples.

Results

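The genes described here encode subunits of the 5 complexes of oxidative phosphorylation. They were chosen by symbol: every gene that was the single annotation of a probe set and whose symbol begins with NDUFA, NDUFB, NDUFC, NDUFS or NDUFV and a number, with UQCR, with COX and a number from 4 to 8, or with ATP5, plus SDHA to SDHD. The rule found 55 of the 8545 genes measured: 20 of complex I, 3 of complex II, 5 of complex III, 13 of complex IV and 14 of complex V. RNA came from 2 established human glioma cell lines, SNB19 and SF539, and was read on Affymetrix U133A 2.0 arrays, 2 arrays for each of 6 groups and 12 in all. In each line the groups were cells given a scramble siRNA, cells given PARK2 siRNA#1 (siRNA1 here) and cells given PARK2 siRNA#2 (siRNA2 here), all by lipid transfection with Lipofectamine RNAiMAX, collected after 48 h. Every group, the scramble controls included, was therefore transfected. PARK2 encodes parkin, an E3 ubiquitin ligase of mitochondrial quality control; PARK2 RNA is not analysed here, and the degree of knockdown is therefore unchecked.

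Oxidative phosphorylation takes place in the inner mitochondrial membrane. Complex I accepts electrons from NADH and complex II from succinate, complex III passes them through cytochrome c to complex IV, which reduces oxygen, and complex V, ATP synthase, uses the proton gradient to make ATP. All members measured here are encoded in the nucleus, whereas some subunits of complexes I, III, IV and V come from mitochondrial DNA. The promoters of many nuclear subunits hold binding sequences of NRF1, GABPA and YY1, transcription factors known for driving respiratory genes.

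The DNA around the start sites, which the choice by symbol did not use, was searched for these sequences. RefSeq promoter windows of 300 bases (assembly GRCh38.p14, 250 before and 50 after the start) matched 47 of the 55 members; a gene with several windows counted if any held the motif. Exact matches on either strand were sought to GCATGCGC for NRF1, CCGGAAG for the ETS family that includes GABPA, and AAGATGGC for YY1; none of these motifs contains another. The NRF1 letters stood in 11 member promoters, 23.4%, against 3.68% of 27305 genes. The GABPA letters stood in 17 member promoters (36.2% against 12.2%) and the YY1 letters in 10 (21.3% against 3.52%). At least 1 of the 3 stood in 30 member promoters, 63.8%, against 17.6% of genes. A match describes the sequence and is not a bound site, and no match says only that these letters are not in this window. Of the members called higher in SNB19 with the PARK2 siRNAs, 9 had a window. The NRF1 letters stood in 4 of these 9 and at least 1 motif in 7. Among the 37 members with a window that were not called, 7 carried the NRF1 letters and 23 at least 1 motif. A link between the motifs and the direction of change was not tested. The 180 bases directly before the start are given 5′ to 3′ along the gene's strand for 3 members that were called higher in SNB19 with the PARK2 siRNAs and carry the NRF1 letters, and for SDHA, the single member called lower; motif matches are in capitals.
ATP5MC2, chr12:53676084-53676263, minus strand: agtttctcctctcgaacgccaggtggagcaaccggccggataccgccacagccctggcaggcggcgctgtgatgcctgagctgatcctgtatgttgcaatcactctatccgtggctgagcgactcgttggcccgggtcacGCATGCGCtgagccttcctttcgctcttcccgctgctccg
ATP5PF, chr21:25735055-25735234, minus strand: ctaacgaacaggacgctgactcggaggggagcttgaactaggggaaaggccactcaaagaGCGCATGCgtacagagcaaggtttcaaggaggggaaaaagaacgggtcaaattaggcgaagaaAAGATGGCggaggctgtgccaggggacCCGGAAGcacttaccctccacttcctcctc
NDUFA5, chr7:123557819-123557998, minus strand: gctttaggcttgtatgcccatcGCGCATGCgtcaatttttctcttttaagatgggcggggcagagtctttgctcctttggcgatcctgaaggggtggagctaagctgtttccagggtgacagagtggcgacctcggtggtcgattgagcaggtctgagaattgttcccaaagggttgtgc
SDHA, chr5:218140-218319, plus strand: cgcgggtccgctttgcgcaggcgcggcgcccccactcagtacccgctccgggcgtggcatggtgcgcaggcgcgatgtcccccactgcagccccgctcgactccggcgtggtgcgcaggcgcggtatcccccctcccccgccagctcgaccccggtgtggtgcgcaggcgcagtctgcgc
ATP5PF carries matches to all 3 motifs in this stretch, ATP5MC2 and NDUFA5 to the NRF1 motif alone, and SDHA to none. For a gene with several windows, the window with most matches before the start is printed. ATP5MC2 and NDUFA5 had 3 windows each, ATP5PF had 2 and SDHA 1. The 3 higher members were also picked because they carry the NRF1 letters. The stretches therefore do not show a contrast between members called higher and lower. NDUFS7, with 1 window, carries the NRF1 letters at -73 to -66 and was not called in SNB19 (-0.05).

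The deposited values were on the log2 scale, and array medians lay between 5.94 and 6.14. Each gene is represented by its brightest probe set, and levels are not compared between genes, since probe sets differ in brightness for the same amount of RNA. With scramble, some of the glial markers read above the lower quartile of the arrays, and so did some markers of other cell types. VIM read 13.41 on average in SNB19 and 13.61 in SF539. On the 2 scramble arrays SOX9 read 11.54 and 11.47 in SNB19 and 7.71 and 7.50 in SF539. SOX2 read 9.62 and 9.42 in SNB19 and 4.50 and 4.97 in SF539, above the lower quartile of the arrays (3.93 to 4.02). GFAP, S100B and FABP7 averaged 6.90, 7.38 and 10.56 in SNB19 but 3.93, 3.80 and 3.79 in SF539, at or below that quartile. OLIG2 was below that quartile in both lines, as was the leukocyte marker PTPRC. The leukocyte marker CD14 read 3.76 and 3.57 in SNB19 and 4.04 and 3.65 in SF539 with scramble, near the quartile. CD3E, also a leukocyte marker, was above it, at 5.10 and 5.40 in SNB19 and 5.25 and 5.02 in SF539. In RNA from whole cultures, fewer cells of one kind and less RNA per cell cannot be told apart. Nothing in the labels ties the replicates to separate cultures, and the p-values below therefore reflect only how far paired arrays differ, which may be technical variation.

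The SF539 siRNA2 pair stood apart in these genes, and the SF539 results below depend on it. In that pair, replicate 2 was below replicate 1 in 54 of 55 members, with a median gap of -0.29, while over all genes 50.5% were below and the median gap was -0.00. In the other groups the median gap of the members lay between -0.05 and 0.02, and the median SD of the members was 0.026 to 0.047, against 0.204 in the SF539 siRNA2 pair. Over all genes the median SD of this pair was 0.132, also the highest, against 0.062 to 0.085 in the other groups. In SNB19 siRNA2 replicate 2 was below replicate 1 in 47 of 55 members and in 56.6% of all genes, with median gaps of -0.05 and -0.02. In the SF539 siRNA2 pair the largest gap was that of NDUFA7, an accessory subunit of complex I, which read 9.38 and 8.79. ATP5PB, the b subunit of the ATP synthase stalk, read 12.66 and 12.26 in that pair. Which of the 2 SF539 siRNA2 arrays stands closer to its condition was not tested.

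**Figure D1:**
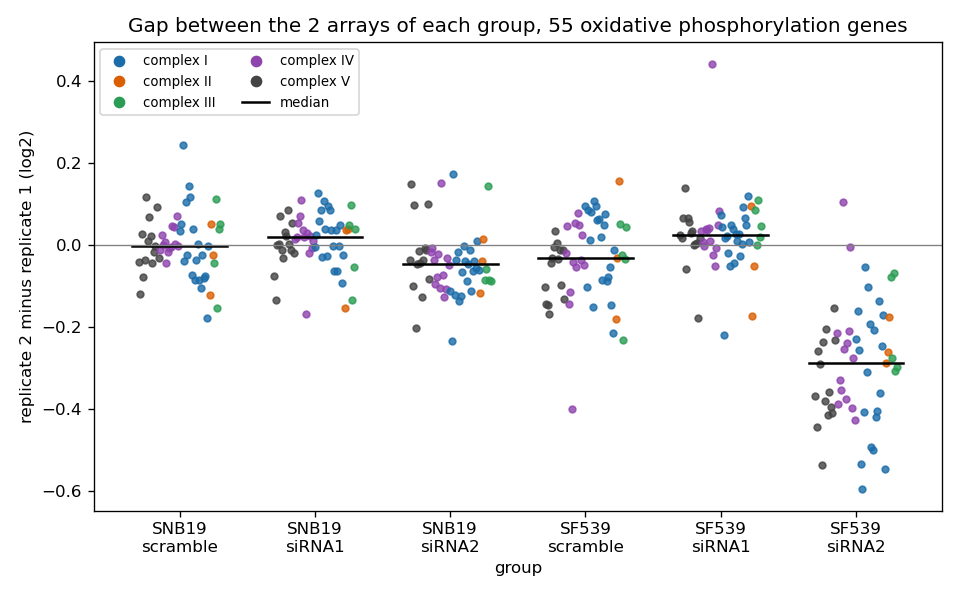
Replicate 2 minus replicate 1 (log2) for the 55 oxidative phosphorylation genes in each of the 6 groups (vertical axis), 1 point per gene coloured by complex, with the median of the members as a line. In the SF539 siRNA2 pair 54 of 55 members lie below 0, with a median of -0.29; the medians of the other groups lie between -0.05 and 0.02.

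In SNB19 the PARK2 siRNAs went with higher RNA of a minority of subunits. The comparison asks how the RNA of each subunit differs between cells with either PARK2 siRNA and cells with scramble. Against scramble, the mean of both siRNAs was higher in 10 members and lower in 1 of 55 (limma, Benjamini-Hochberg adjusted p under 0.05 over 8545 genes). These 11 members are 20% of the list, and 32.8% of all genes were called; 15.5% of all genes were called higher and 17.4% lower, against 18.2% and 1.82% of the members. The share called higher was thus close to the background, and the share called lower was below it. The median member differed by 0.08, against -0.01 over all genes, and 2 members passed 1.5-fold, as did 14.3% of all genes. Centring each array on its own median put the all-gene median at 0.12, and then 23 members were called higher and 0 lower; with quantile normalization 8 were called higher and 3 lower. Without the 2 SF539 siRNA2 arrays, which enter the shared estimate of the spread, 17 members were called higher and 4 lower in SNB19, with 41.6% of all genes called. Without replicate 1 of SNB19 scramble 3 members were called (SDHC, ATP5MC2 and ATP5PB), without its replicate 2 there were 5, and 7 without replicate 2 of siRNA1, without either siRNA2 array or without either SF539 siRNA1 array. The share of all genes called was 20.4% and 22.2% without the scramble arrays and 26% to 30.4% without the others named.

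Complex V, with 14 of the 55 members, held 5 of the 10 higher members. The counts by complex in SNB19 stand against 15.5% of all genes called higher and 17.4% lower. Subunit c of ATP synthase, the ring that turns as protons pass, is encoded by 3 genes whose mature proteins are the same, and 1 of the 3 was called. ATP5MC2 read 9.84 and 9.96 with scramble, 10.32 and 10.31 with siRNA1 and 10.69 and 10.64 with siRNA2 in SNB19. The scramble arrays lay below every siRNA array, and ATP5MC2 rose by 0.59 ± 0.08 (SE; limma adjusted p = 0.000421), or 1.51-fold. ATP5MC1 read 9.93 and 9.89 with scramble, 9.86 and 9.93 with siRNA1 and 10.26 and 10.06 with siRNA2. ATP5MC3 read 12.22 and 12.23, 12.11 and 12.08, and 12.25 and 12.23 in the same order. ATP5MC1 overlapped between scramble and siRNA1, and ATP5MC3 lay below scramble with siRNA1 and just above it with siRNA2. Neither passed the test for the mean of both siRNAs, with differences of 0.12 ± 0.13 for ATP5MC1 and -0.05 ± 0.10 for ATP5MC3. Near-copies and processed pseudogenes exist for this family and for SDHA and SDHC, among other members, and signal shared with them was not separated.

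The stalk that holds the catalytic head in place showed 2 of its 4 measured members higher. ATP5PB, its b subunit, read 12.01 and 11.99 with scramble, 12.50 and 12.50 with siRNA1 and 12.64 and 12.63 with siRNA2 in SNB19. No array overlapped between scramble and either siRNA, and the rise was 0.56 ± 0.10 (limma adjusted p = 0.00176). ATP5PF, the coupling factor 6 subunit of the same stalk, rose by 0.36 ± 0.08 (limma adjusted p = 0.008). ATP5PO, the subunit that ties the stalk to the head, differed by 0.20 ± 0.08 and ATP5PD by 0.13 ± 0.10, without passing the test. None of the 4 measured members of F1, the part that includes the catalytic head, was called: ATP5F1A differed by 0.16, ATP5F1B by -0.21, ATP5F1C by -0.09 and ATP5F1D by 0.09.

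Of the 3 small membrane subunits of ATP synthase measured, 2 were called. ATP5MJ read 10.54 and 10.49 with scramble, 10.82 and 10.91 with siRNA1 and 10.98 and 10.94 with siRNA2. It rose by 0.40 ± 0.10 (limma adjusted p = 0.0102) with no overlap, and its dimmer probe set differed by 0.23. ATP5ME, subunit e, which helps ATP synthase form dimers, rose by 0.29 ± 0.08 (limma adjusted p = 0.0155). ATP5MG, subunit g, differed by 0.02 ± 0.11.

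Complex II, succinate dehydrogenase, moved in both directions. SDHC, one of the membrane anchors, read 9.21 and 9.26 with scramble, 9.68 and 9.72 with siRNA1 and 9.99 and 9.95 with siRNA2 in SNB19. It rose by 0.60 ± 0.09 (limma adjusted p = 0.000607), or 1.51-fold, and all 4 of its probe sets differed in that direction, by 0.29 to 0.62. SDHA, the flavoprotein that oxidises succinate, read 10.36 and 10.23 with scramble, 9.97 and 9.82 with siRNA1 and 10.12 and 10.00 with siRNA2. All 4 siRNA arrays lay below both scramble arrays, and SDHA fell by 0.32 on the log2 scale (SE 0.10; limma adjusted p = 0.0397). The call on SDHA was lost with median centring (-0.19, limma adjusted p = 0.173; over all alternatives and left-out arrays its call was lost in 8 of 21). SDHD, the other anchor, read 10.48 and 10.46 with scramble, 10.20 and 10.24 with siRNA1 and 10.45 and 10.46 with siRNA2. Both siRNA1 arrays lay below scramble and siRNA2 overlapped with it, and the difference of -0.13 ± 0.08 was not called.

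In complex I 3 of 20 members were called, all higher, a share near the 15.5% of all genes called higher. All 3 are accessory subunits, as are 15 of the 20, and core and accessory subunits were not tested against each other. NDUFA5 read 10.22 and 10.47 with scramble, 10.72 and 10.84 with siRNA1 and 10.88 and 11.05 with siRNA2. It rose by 0.53 ± 0.11 (limma adjusted p = 0.00516) with no overlap, although its scramble arrays differed by 0.25. The call was lost with the mean of probe sets (0.18, limma adjusted p = 0.243) and without replicate 1 of SNB19 scramble (0.41, limma adjusted p = 0.0759). A second NDUFA5 probe set, at 2.94 on average, near the bottom of the scale, differed by -0.17. NDUFB7 read 9.71 and 9.62 with scramble, 9.89 and 9.98 with siRNA1 and 10.13 and 10.10 with siRNA2, a rise of 0.36 ± 0.12 (limma adjusted p = 0.0404). NDUFB6, which like NDUFB7 belongs to the membrane arm, rose by 0.22 ± 0.08 (limma adjusted p = 0.0482); the calls on both were lost in 12 of 21 alternatives and left-out arrays. None of the 5 measured core subunits, which carry the NADH site and the iron-sulfur clusters, was called, with differences from -0.21 (NDUFS3) to 0.19 (NDUFV1).

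Complex III had 1 of 5 members called and complex IV 0 of 13. UQCR11, a small subunit of complex III, rose by 0.21 ± 0.07 (limma adjusted p = 0.041), a call lost in 10 of 21 alternatives and left-out arrays. UQCRQ, another small subunit, lay just outside with 0.25 ± 0.09 (limma adjusted p = 0.0541). In complex IV the differences ran from -0.27 in COX8A to 0.21 in COX7C. COX8A, the ubiquitous form of subunit 8, read 12.02 and 12.02 with scramble, 11.64 and 11.65 with siRNA1 and 11.87 and 11.82 with siRNA2. These groups did not overlap, but the difference of -0.27 ± 0.11 missed the threshold (limma adjusted p = 0.0774).

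**Figure D2:**
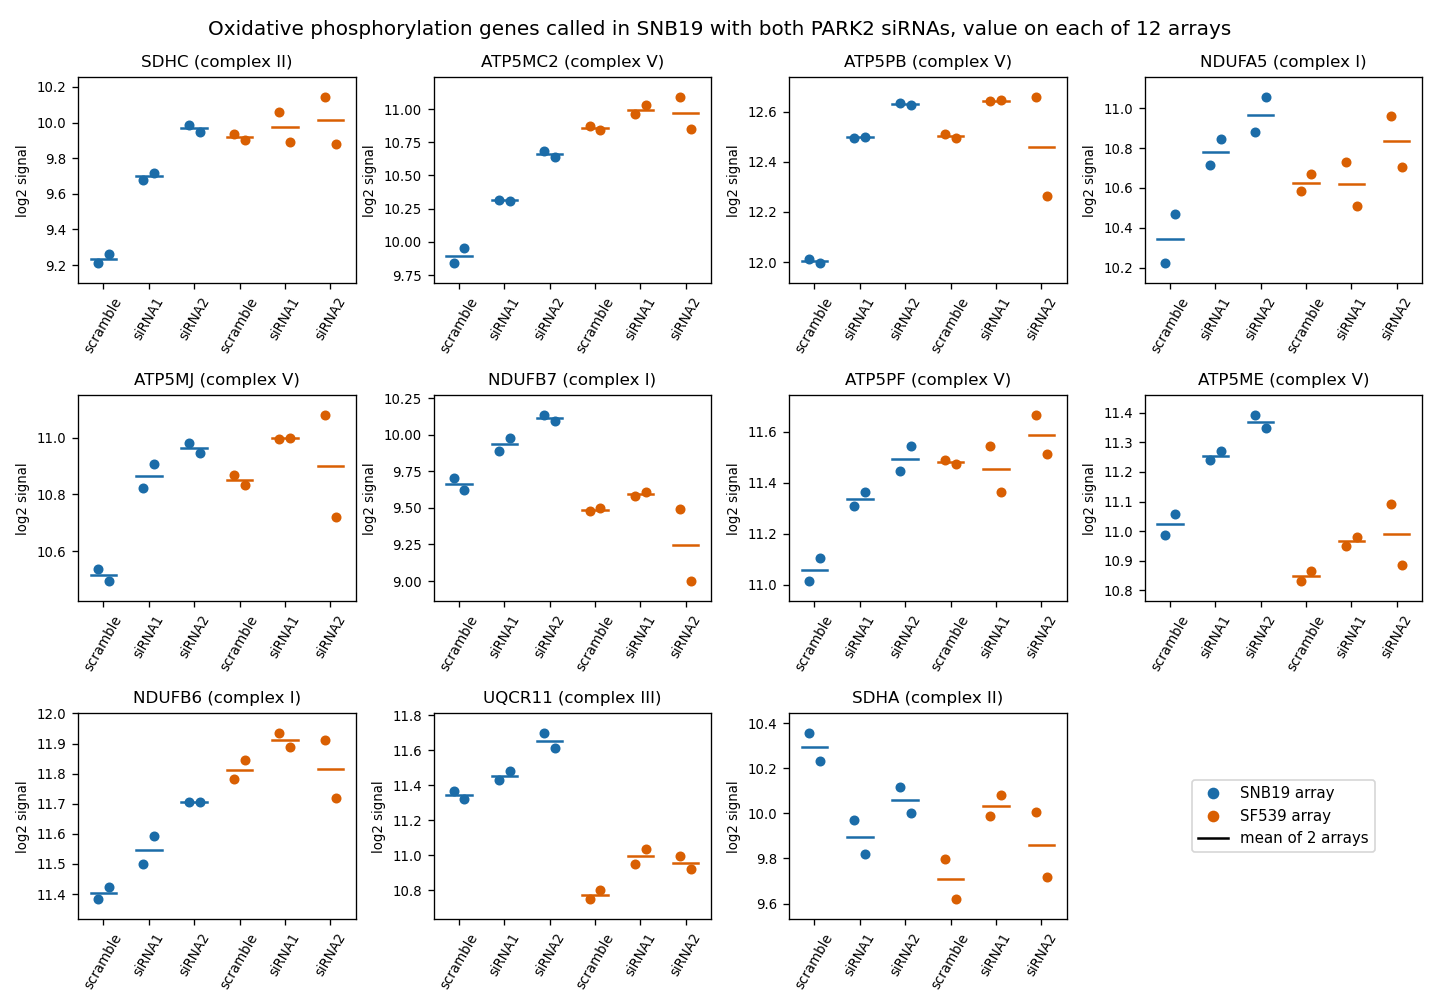
Log2 values of the members called in SNB19, 1 panel per gene, with each array as a point and the mean of 2 arrays as a line, for scramble, siRNA1 and siRNA2 in SNB19 and SF539. In SNB19 every siRNA array of these genes lies outside the range of the scramble arrays, above it except for SDHA.

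Arrays were also counted in SNB19, without a test. Every member rests on the same scramble arrays, and the members are not independent of each other. In the SF539 siRNA2 pair 54 of 55 members shifted the same way between arrays of 1 group. All 4 siRNA arrays lay above both scramble arrays in 26 of 55 members, 47.3%, against 24.2% of all genes, and below them in 6 members, 10.9%, against 26.4%. The mean over all 55 members was 10.83 ± 0.001 (SD, n = 2) with scramble, 10.87 ± 0.007 with siRNA1 and 11.01 ± 0.032 with siRNA2. In the order scramble, siRNA1 and siRNA2, the mean of complex III was 11.10, 11.24 and 11.39 and that of complex V 11.17, 11.29 and 11.42, while complex IV was at 10.78, 10.72 and 10.83.

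The siRNAs taken singly were also set against scramble in SNB19, and both comparisons use the same scramble arrays. With siRNA1, 5 members were called higher and 1 lower; 26.1% of all genes were called, 12.4% higher and 13.7% lower. With siRNA2, 11 members were higher and 0 lower; 29.7% of all genes were called, 13.9% higher and 15.8% lower. Quantile normalization gave 6 higher and 3 lower members with siRNA1, and median centring 9 and 0. Without replicate 1 of SNB19 scramble the counts were 0 with siRNA1 and 3 with siRNA2 (17.1% and 19.2% of all genes), and without its replicate 2 they were 3 and 6 (18.2% and 21.6%). Without replicate 1 or 2 of the siRNA itself they were 1 or 0 with siRNA1 and 5 or 4 with siRNA2, and without either SF539 siRNA2 array 16 and 22 (35.8% and 38.6% of all genes). For ATP5MC2 the change was 0.41 ± 0.10 with siRNA1 and 0.77 ± 0.10 with siRNA2. For SDHC it was 0.46 ± 0.10 and 0.73 ± 0.10, for ATP5PB 0.49 ± 0.11 and 0.63 ± 0.11, and for NDUFA5 0.44 ± 0.13 and 0.62 ± 0.13. SDHA was called with siRNA1 (-0.40 ± 0.12, limma adjusted p = 0.0331) and differed by -0.24 ± 0.12 with siRNA2.

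Set directly against each other in SNB19, the siRNAs differed in 0 of 55 members (limma), with 6.06% of all genes called and 7 members at an unadjusted p under 0.05. The value with siRNA2 was above that with siRNA1 in 53 of 55 members, by a median of 0.13, against 0.01 over all genes. In 45 members, 81.8%, both siRNA2 arrays lay above both siRNA1 arrays, as they did in 30.6% of all genes, and in 0 members both lay below, against 27.6%. These counts are not a test, because all members are read on the same arrays and can shift together. Within the SNB19 siRNA2 pair replicate 2 was below replicate 1 in 47 of 55 members, by a median of -0.05. The smallest limma adjusted p was that of ATP5MC2, 0.0626, with a difference of 0.35 ± 0.10. NDUFB5, an accessory subunit of complex I, followed with 0.29 ± 0.08 (limma adjusted p = 0.0703).

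In SF539 no subunit passed the test. Of the 55 members, 0 were called for the mean of both siRNAs against scramble (limma), 3 had an unadjusted p under 0.05, and 9.82% of all genes were called. The differences ran from -0.25 to 0.25 with a median of 0.04, against -0.02 over all genes; with median centring the member median was -0.01, on the other side of 0. The 95% interval that reached lowest was that of COX7A1, down to -0.53, and the one that reached highest that of SDHA, up to 0.47. All 4 siRNA arrays lay above both scramble arrays in 5 members, 9.09%, against 13.7% of all genes, and below them in 0, against 14.5%.

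ATP5PO came nearest to a call in SF539. It read 11.80 and 11.67 with scramble, a mean of 12.01 with siRNA1 and 12.08 and 11.84 with siRNA2, without overlap. The difference was 0.25 ± 0.08 (limma adjusted p = 0.0896), against 0.20 ± 0.08 in SNB19. UQCR11 differed by 0.20 ± 0.07 (limma adjusted p = 0.102), also without overlap, and the other members whose arrays did not overlap were ATP5ME, COX7C and NDUFA2.

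The 2 arrays of SF539 siRNA2 gave different counts when each was left out. Without replicate 2, 6 members were called higher for the mean of both siRNAs: ATP5MG, ATP5PO, COX7C, SDHA, UQCR11 and UQCRC2, with 16.1% of all genes called. Without replicate 1, 1 member was called, COX6C, which was lower, with 23.1% of all genes called. For siRNA2 alone against scramble, 0 members were called with both arrays (15.2% of all genes), 3 higher without replicate 2 and 19 lower without replicate 1 (14% and 30.3% of all genes). The siRNA1 comparison, which does not use that pair, called 0 members, with 2.73% of all genes called; ATP5PO differed by 0.28 ± 0.10 and SDHA by 0.33 ± 0.12. With both SF539 siRNA2 arrays left out of the fit, ATP5PO and UQCRC2, a core subunit of complex III, were called higher with siRNA1, with 9.39% of all genes called. In 34 members, 61.8%, both siRNA1 arrays lay above both scramble arrays, against 26.9% of all genes, and in 0 members below, against 24.9%. Members read on the same arrays can shift together, so this count is not a test.

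Between the siRNAs in SF539, 0 members were called (limma; 5 at an unadjusted p under 0.05), with 2.72% of all genes called. The value with siRNA2 was below that with siRNA1 in 44 of 55 members, by a median of -0.15, against -0.03 over all genes. Without replicate 2 of SF539 siRNA2 the median was 0.03 and 0 members were called; without replicate 1 it was -0.29 and 30 members were called lower, with 27% of all genes called.

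**Figure D3:**
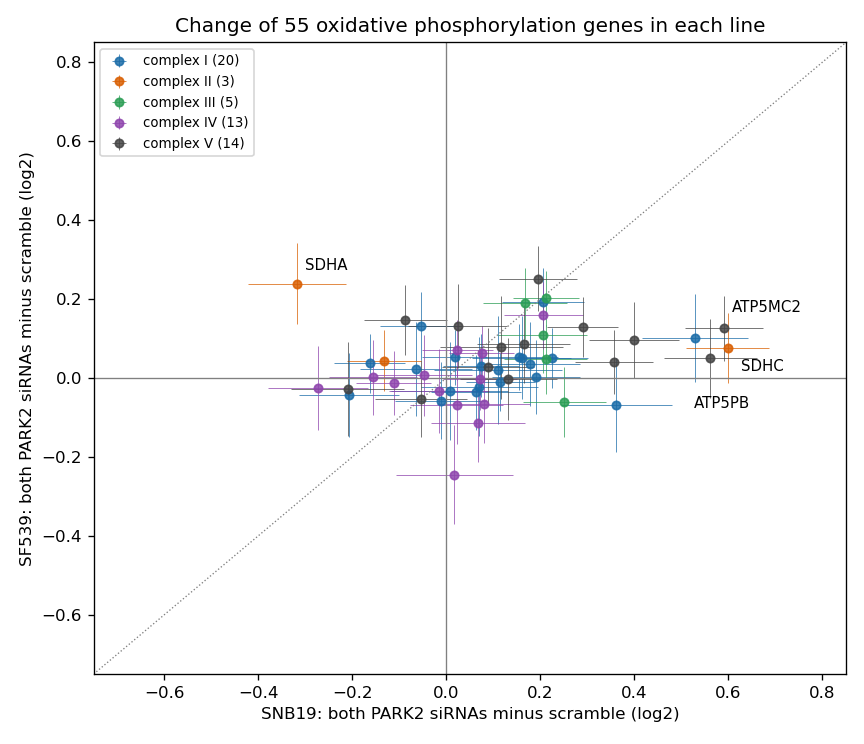
Mean of both PARK2 siRNAs minus scramble (log2) in SNB19 on the horizontal axis and in SF539 on the vertical axis for the 55 members, coloured by complex, with standard errors as bars and the line of equal change dotted. SDHC, ATP5MC2 and ATP5PB lie far to the right of the dotted line, at 0.56 to 0.60 in SNB19 and 0.05 to 0.13 in SF539, and SDHA lies at -0.32 in SNB19 and 0.24 in SF539.

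The difference of the PARK2 siRNA effect between the lines was tested directly and was called in 4 of 55 members, 1 higher and 3 lower in SF539 than in SNB19 (limma), with 19.1% of all genes called, 10.8% higher and 8.3% lower. With median centring 8 were called, all lower. The effect on SDHC was smaller in SF539 by 0.52, and the difference SF539 minus SNB19 was -0.52 ± 0.13 (limma adjusted p = 0.0171). In SF539 SDHC read 9.93 and 9.90 with scramble, 10.06 and 9.89 with siRNA1 and 10.14 and 9.88 with siRNA2, and the groups overlapped. ATP5MC2 read 10.87 and 10.84, 10.96 and 11.03, and 11.09 and 10.85 in the same order, and its effect differed by -0.46 ± 0.12 (limma adjusted p = 0.0209). ATP5PB read 12.51 and 12.50, 12.64 and 12.65, and 12.66 and 12.26, and its effect differed by -0.51 ± 0.14 (limma adjusted p = 0.0303).

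SDHA differed in the other direction. In SF539 it read 9.80 and 9.62 with scramble, 9.99 and 10.08 with siRNA1 and 10.01 and 9.72 with siRNA2, so that the siRNA2 arrays overlapped with scramble and the siRNA1 arrays lay above it. Its effect differed by 0.56 ± 0.15 between the lines (limma adjusted p = 0.0254), with -0.32 in SNB19 and 0.24 in SF539. All 4 of these differences were also called when either SF539 siRNA2 array was left out. Then 13 members were called without replicate 1 and 8 without replicate 2, with 31.4% and 27.4% of all genes called. Without replicate 1 of SNB19 scramble 0 were called, without its replicate 2 or either SF539 scramble array there was 1, and 2 without replicate 2 of either siRNA in SNB19 or of siRNA1 in SF539. The share of all genes called in these settings was 11.1% to 15%.

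With scramble alone, the lines differed in 27 of 55 members: 12 were higher in SF539 and 15 lower (limma), and 49.3% of all genes were called, 24.6% higher and 24.7% lower. The share of members called, 49.1%, was at the background. The median difference was 0.01, against 0.04 over all genes; with quantile normalization it was -0.09, and with median centring, which moved the median of all genes to 0.20, 18 members were higher and 11 lower. The largest difference was in NDUFC1, a small accessory subunit of complex I, which read 11.76 and 11.76 in SNB19 and 10.75 and 10.80 in SF539. NDUFC1 was lower in SF539 by 1.99-fold (-0.99 ± 0.09, limma adjusted p = 7.54e-06). With the siRNAs NDUFC1 stayed between 11.54 and 11.69 in SNB19 and between 10.67 and 10.88 in SF539, with no overlap between the lines.

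Complex I differed between the lines in both directions. NDUFS6, an accessory subunit with a zinc site, read 12.17 and 12.09 in SNB19 and 11.46 and 11.41 in SF539, a difference of -0.70 ± 0.11 (limma adjusted p = 0.000515). NDUFA9, an accessory subunit between the arms of the complex, read 9.68 and 9.65 in SNB19 and 10.42 and 10.27 in SF539, a difference of 0.68 ± 0.12 (limma adjusted p = 0.000993). Of the 5 core subunits measured, 4 were lower in SF539: NDUFS7 (-0.62), NDUFV2 (-0.44), NDUFS3 (-0.42) and NDUFV1 (-0.36). The other, NDUFS1, differed by -0.32 ± 0.12 (limma adjusted p = 0.0521). Among the 15 accessory subunits 4 were higher and 4 lower. With median centring NDUFS3, NDUFV1 and NDUFV2 lost their calls, as did COX6B1 of complex IV.

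In the other complexes the lines differed subunit by subunit. SDHC was higher in SF539 (0.68 ± 0.10, limma adjusted p = 0.000309) and SDHA lower (-0.59 ± 0.12, limma adjusted p = 0.00228). In complex III, UQCRB, which helps form the ubiquinone site, read 11.44 and 11.55 in SNB19 and 12.13 and 12.11 in SF539 and was higher there by 0.62 ± 0.10 (limma adjusted p = 0.000554). UQCR11 (-0.57 ± 0.08) and the core subunit UQCRC1 (-0.53 ± 0.11) were lower. In complex IV, COX6C was higher (0.57 ± 0.11), and COX8A (-0.61 ± 0.12) and COX6B1 (-0.39 ± 0.09) were lower.

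In complex V 5 members were higher in SF539 and 2 lower. ATP5MC2 was 1.95-fold higher (0.96 ± 0.10, limma adjusted p = 1.75e-05), ATP5PB was higher by 0.50, ATP5PF by 0.42, ATP5F1A by 0.36 and ATP5MJ by 0.34. The F1 subunit ATP5F1D (-0.61) and ATP5MG (-0.51) were lower. For ATP5MJ the probe sets disagreed: its dimmer probe set differed by -0.63. With the mean of probe sets the ATP5MJ difference was -0.15. This comparison and those with the siRNAs in SNB19 share the SNB19 scramble arrays. The siRNA2 arrays of SNB19 can be set beside SF539 scramble. SDHC read 9.99 and 9.95 against 9.93 and 9.90, and ATP5PB 12.64 and 12.63 against 12.51 and 12.50. ATP5MC2 read 10.69 and 10.64 against 10.87 and 10.84. Other members called higher in SNB19 moved away from SF539 scramble. In group means UQCR11 went from 11.34 with scramble to 11.65 with siRNA2 in SNB19, against 10.77 in SF539 scramble. NDUFB7 went from 9.66 to 10.12, against 9.49, and ATP5ME from 11.02 to 11.37, against 10.85. The remaining higher members are not given here.

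**Figure D4:**
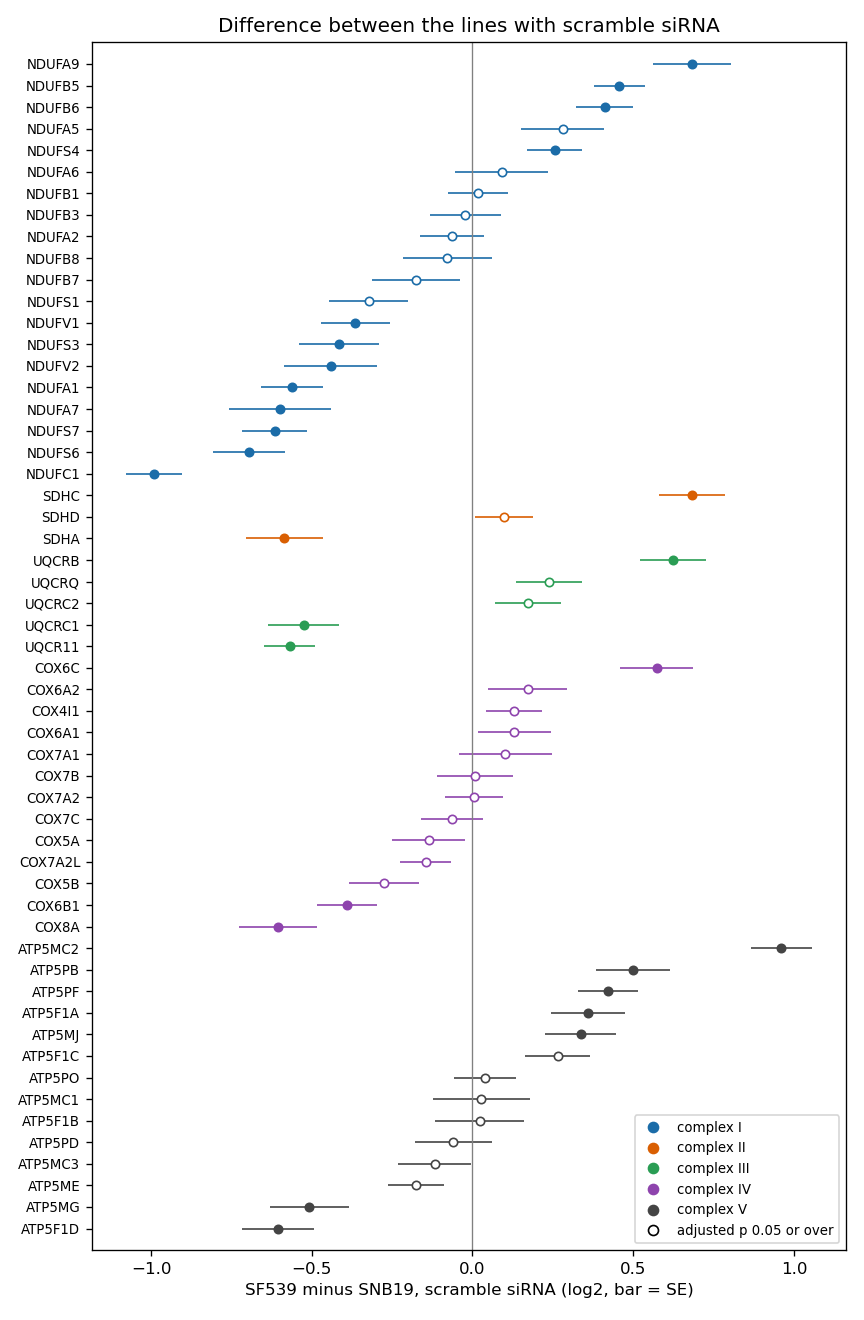
SF539 minus SNB19 with scramble siRNA (log2) for the 55 members ordered by size within each complex, with standard errors as bars, called members filled and the others open. Differences run from -0.99 in NDUFC1 to 0.96 in ATP5MC2, and the 5 measured core subunits of complex I all lie below 0.

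Several subunits exist as isoforms made by separate genes. COX6A2 and COX7A1, the forms of heart and skeletal muscle, read between 4.44 and 4.87 and between 3.26 and 3.78 over the 12 arrays, near the lower quartile of the arrays, and their differences are limited by the background. COX6A1, the form found in most tissues, read from 12.11 to 12.48, with the lowest value on replicate 2 of SF539 siRNA2. COX7A2 read from 12.20 to 12.51 and COX7A2L, a factor in joining complexes III and IV, from 11.01 to 11.36. None of these was called in either line. COX4I1, the common form of subunit 4, read 12.18 and 12.17 with scramble, 12.15 and 12.16 with siRNA1 and 12.24 and 12.23 with siRNA2 in SNB19, a difference of 0.02 ± 0.08. A dimmer COX4I1 probe set differed by 0.27, so the probe sets of this gene disagree. COX6B1 read 11.77 and 11.75 with scramble, 11.56 and 11.60 with siRNA1 and 11.74 and 11.71 with siRNA2, a difference of -0.11 ± 0.08. COX7B read 12.33 and 12.33, 12.12 and 12.14, and 12.48 and 12.38 in the same order, lower with siRNA1 and higher with siRNA2 than with scramble, with a mean difference of -0.05 ± 0.10.

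Genes that build or supply the complexes moved more than the subunits themselves in single cases. The counts in these lists stand against 15.5% of all genes called higher and 17.4% lower in SNB19, and 9.82% called in SF539. Of 11 assembly factors measured, 3 were higher and 3 lower in SNB19. SCO2, a copper chaperone of complex IV, fell by 1.28 on the log2 scale (group means 9.39 for scramble, 8.01 for siRNA1 and 8.22 for siRNA2; -1.28 ± 0.08, limma adjusted p = 2.30e-06), while SF539 differed by -0.11. SCO2 overlaps TYMP in RefSeq, so their signals may not be separable; TYMP, read because of that overlap after the value of SCO2 was seen, fell by 0.43 in SNB19 (limma adjusted p = 0.00973) and by 0.41 in SF539 (limma adjusted p = 0.0328). COX11, another copper factor of complex IV, rose by 0.61 ± 0.08 in SNB19 (limma adjusted p = 0.000209) and by 0.36 ± 0.08 in SF539 (limma adjusted p = 0.0175). COX20 fell by 0.76 on the log2 scale in SNB19, and SURF1, also of complex IV assembly, rose by 0.29 in SF539.

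Of 14 regulators of mitochondrial biogenesis measured, 2 were higher and 3 lower in SNB19, and 0 higher and 1 lower in SF539. ESRRA, a nuclear receptor that drives respiratory genes, fell by 0.61 on the log2 scale in SNB19 (SE 0.07; limma adjusted p = 0.000175) and by 0.29 in SF539 (SE 0.07; limma adjusted p = 0.0362). MTERF1 fell by 0.53 and SSBP1, the single-strand binding protein of mitochondrial DNA, rose by 0.36 in SNB19. NRF1 and GABPA, whose motifs are described above, differed by 0.19 ± 0.13 and 0.01 ± 0.11 in SNB19 and by -0.08 ± 0.13 and -0.14 ± 0.11 in SF539. TFAM, which packages mitochondrial DNA, differed by -0.13 ± 0.09 in SNB19 and 0.00 ± 0.09 in SF539. None of these 3 was called with the PARK2 siRNAs.

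In the TCA cycle and pyruvate dehydrogenase list, 4 of 19 were higher and 4 lower in SNB19, and 2 higher and 1 lower in SF539. IDH2, mitochondrial isocitrate dehydrogenase, rose by 0.70 ± 0.11 in SNB19 (limma adjusted p = 0.000721) and by 1.13 ± 0.11 in SF539 (limma adjusted p = 0.000346). In SNB19 SUCLG2 rose by 0.53, and PDHX fell by 0.42 and PDK1, a kinase that switches off pyruvate dehydrogenase, by 0.71. PDHX read 10.77 and 10.79 with scramble, 10.64 and 10.57 with siRNA1 and 10.10 and 10.13 with siRNA2. PDK1 read 6.49 and 6.09, 6.12 and 5.79, and 5.11 and 5.27 in the same order. The siRNA1 arrays of PDK1 overlapped with scramble, and both genes were lowest with siRNA2. In SF539 PDHB rose by 0.29 and IDH3A fell by 0.38. Of 12 electron carriers and coenzyme Q genes, 1 was lower in SNB19, COQ9 (-0.52 ± 0.12), and 0 were called in SF539. CYC1, the cytochrome of complex III, which the choice by symbol does not include, differed by -0.05 ± 0.13 in SNB19 and -0.11 ± 0.13 in SF539. CYCS, cytochrome c, differed by -0.07 ± 0.07 and -0.08 ± 0.07. Of 10 carriers and coupling genes 3 were higher and 2 lower in SNB19, among them SLC25A5 (0.41 ± 0.08) and SLC25A4 (-0.32 ± 0.07), both ADP/ATP carriers, and LONP1 (-0.40 ± 0.09), a matrix protease; in SF539 1 was higher, HIGD2A (0.30 ± 0.08).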

How the data were processed

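The authors deposited log2 values of 16376 probe sets, between 2.01 and 14.14, and used Partek, per the submitters' processing notes. How they corrected background and normalized, and on which build, is not given in the sources used here. The gene table gave 1 gene for 14038 probe sets, several for 792, which were left unnamed, and none for 1546; 5 probe sets of subunits were left out in this way. Symbols of 14028 probe sets were updated by Entrez identifier through RefSeq (GRCh38.p14). Each gene took its brightest probe set; the 55 members had 86. The values carry no detection call.

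A model with 6 groups was fitted to 12 arrays and 8545 genes in R 4.3.3 by limma 3.58.1 (lmFit, eBayes; degrees of freedom 6 residual, 3.65 prior), two-sided, with Benjamini-Hochberg adjusted p under 0.05 as the call. Errors are standard errors unless named SD. All siRNA comparisons of a line share its scramble arrays. On simulated data with 8545 genes, the SNB19 comparison recovered 70% of 50 genes altered 1.5-fold and 14% of those altered 1.25-fold. The SF539 comparison recovered 84% and 12%. The simulated spread was alike in all groups, unlike that of SF539 siRNA2. Far fewer genes were called in the simulation, 149 for SNB19 and 154 for SF539, against 2806 and 839 in the data. Its Benjamini-Hochberg cutoff on p was therefore stricter, and these rates do not describe the comparisons of the data.

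Every member may be named. Values by array are given for the 6 largest called changes of each comparison of both siRNAs with scramble and of the lines, the 4 largest of the others, and isoforms; from other lists up to 3 called genes by p, and CYC1, CYCS, NRF1, GABPA, TFAM, ESRRA and PDK1. Members and lists were chosen with earlier results of these data known. Replicate numbers did not pair the arrays: deviations of same-numbered arrays correlated by -0.18 to 0.11. Figures used matplotlib 3.10.9.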

Additional observations from a re-analysis of the deposited data

Results flagged for a closer look

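For 4 members the effect of the PARK2 siRNAs differed between the lines by a test of the difference itself (limma, SF539 minus SNB19). The difference was -0.52 for SDHC, -0.46 for ATP5MC2, -0.51 for ATP5PB and 0.56 for SDHA. Their limma adjusted p-values were 0.0171, 0.0209, 0.0303 and 0.0254, and over the alternatives and left-out arrays they reached 0.0762, 0.103, 0.0951 and 0.114.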

How the results depend on the processing

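Counts of called members among the 55 depended on the setting, and the cause was not tested except where fewer arrays or genes entered. For both siRNAs against scramble in SNB19 the count of 11 became 23 with median centring, 20 with array weights, 17 with SNB19 arrays alone and 21 without both SF539 siRNA2 arrays, a setting added once the data had been seen. The SF539 count of 0 became 2 without the dimmest 40% of genes, 2 with a trended robust prior and 1 with the mean of probe sets. For siRNA1 in SNB19 the count of 6 became 11, 11, 15, 14 and 16 with dim genes left out, the trended prior, array weights, SNB19 alone and 10 arrays. For siRNA2 the count of 11 became 26 with median centring, 17, 20, 21 and 22 with the trended prior, array weights, SNB19 alone and 10 arrays. In SF539 the siRNA1 count of 0 became 2 with 10 arrays, and the siRNA2 count of 0 became 1 with the mean of probe sets. For siRNA2 against siRNA1 in SNB19 the count of 0 became 1, 2, 2, 9, 5 and 6 with median centring, dim genes left out, the trended prior, array weights, SNB19 alone and 10 arrays. The count of 4 for the difference between lines became 8 with median centring. The replicate block gave 8 called members in SNB19, 0 in SF539, 26 between the lines and 4 for the difference. Leaving out 1 array at a time, with its lone partner assumed to vary like the other groups, gave 3 (without replicate 1 of SNB19 scramble) to 21 in SNB19, 0 to 6 in SF539, 0 to 16 and 3 to 22 for siRNA1 and siRNA2 in SNB19, 0 to 2 and 0 to 19 in SF539, 0 to 6 and 0 to 30 for siRNA2 against siRNA1 in SNB19 and SF539, 21 to 34 between the lines and 0 to 13 for their difference. SDHC, ATP5MC2 and ATP5PB kept their SNB19 calls in all 21 settings, with limma adjusted p up to 0.0108, 0.00942 and 0.0204. NDUFA5 lost its call with the mean of probe sets (0.18, limma adjusted p = 0.243) and without replicate 1 of SNB19 scramble (0.41, limma adjusted p = 0.0759). ATP5MJ between the lines turned from 0.34 to -0.15 with the mean of probe sets. Signal near the lower quartile limits COX6A2 and COX7A1.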
